A study of Homo sapiens with 24 samples.

Results

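The genes of 36 splicing regulators were followed through 24 libraries of 4 human cancer cell lines in which PRMT5, an arginine methyltransferase, was inhibited with EPZ015666. They are the SR proteins (symbols SRSF and a number), the SR-like proteins TRA2A and TRA2B and the CLK kinases. The hnRNP proteins (symbols beginning HNRNP, without pseudogenes) complete the group. Its members were taken by symbol, but the group was chosen with earlier results of these data known. It makes up 36 of the 16591 genes of the deposited table. That table has no row for SRSF1, SRSF2 or HNRNPA1, so these genes could not be followed. BT549 and MDAMB436 are breast cancer lines, and OVCAR8 and COV362 are ovarian cancer lines. BT549 and OVCAR8 received DMSO vehicle or 5 µM EPZ015666 for 3 days or for 5 days, and COV362 and MDAMB436 received either for 5 days. This gives 12 groups of 2 libraries, A and B, with DMSO controls for every line and day. Since no label tells whether A and B are separate cultures, p-values reflect only the spread between the libraries, and that spread may be technical. In such bulk RNA, fewer cells of a kind and less RNA per cell cannot be told apart.

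Pre-mRNA splicing joins exons, and SR proteins and hnRNPs bind the transcript and decide which exons are kept. SR proteins mostly favour inclusion of an exon, hnRNPs often oppose it, and CLK kinases release SR proteins from nuclear speckles by phosphorylating their arginine- and serine-rich tails. Many of these genes limit their own output through unproductive splice forms that are destroyed by nonsense-mediated decay. PRMT5 places symmetric methyl groups on arginines of spliceosomal Sm proteins and of RNA-binding proteins, which is the link between this inhibitor and splicing.

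Levels are given as RPKM, and a change is the difference of log2(RPKM + 1), EPZ015666 minus DMSO, from limma with Benjamini-Hochberg adjustment over all genes tested. This scale understates the change of genes with low RPKM, and folds are ratios of mean RPKM. The word rose or fell is used for an adjusted p under 0.05, and testing in a line required a mean of at least 1 RPKM there. Shares of all genes are given for this setting only. Counts under other settings, with a library left out or at an unadjusted p cannot be set against those shares. Of the 36 genes, 33 were tested in at least 1 line and 31 in all 4. CLK4, SRSF12 and HNRNPCL1 were below the minimum in each line, SRSF8 also in BT549, and CLK3 in BT549 and MDAMB436. Libraries held between 23.8 M and 44.9 M recovered reads. In 22 of the libraries, a set of 22 genes around the ribosomal RNA locus on the short arm of chromosome 21 took 0.23% to 0.80% of the reads, against 1.39% in EPZ015666 replicate A of BT549 at day 3 and 4.55% in EPZ015666 replicate B of OVCAR8 at day 5. The PRMT5 gene itself ranged from 2.26 to 6.20 RPKM over the 12 group means, which does not measure inhibition of the enzyme. Of the mesenchymal line markers in DMSO at day 5, VIM was at 44.1 to 133 RPKM and FN1 at 0.428 to 10.4. ZEB1 was at 0.375 or less and CDH2 at 0.337 to 1.06. The epithelial KRT18 was at 7.92 in BT549, 183 in OVCAR8, 90.5 in COV362 and 51.4 in MDAMB436. KRT8, in the same order, was at 0.0387, 25.9, 15.1 and 1.11. KRT19 was at 30.7 in COV362 and at 0.117 or less elsewhere, and EPCAM at 1.78 or less in all 4 lines. Of 4 ovarian markers, PAX8, WT1 and MUC16 were at 0.595 RPKM or less in all 4 lines, while MSLN was at 47.3 in OVCAR8 and 22.2 in COV362, against 3.08 in BT549 and 0.858 in MDAMB436. The breast marker GATA3 was at 4.21 RPKM in BT549 but 0.0589 in MDAMB436. PGR, also a breast marker, was at 0.167 or less in all 4 lines, and ERBB2 at 1.49 to 3.86. CDH1, ESR1 and KRT5 have no row in the deposited table.

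Before treatment effects, the vehicle libraries of day 5 show how abundant each regulator is. To compare genes, reads were divided by exon length, giving reads per kilobase of exon per M reads. Exon length is the union of exons over all annotated transcripts, those with retained introns included. It is 22512 bases for HNRNPU and 20443 for CLK3, against 3253 for HNRNPF and 2144 for HNRNPAB. The order of genes therefore depends in part on the annotation, and the reads may include some from introns. On this scale the hnRNPs stood highest, with HNRNPF at 190, HNRNPAB at 149, HNRNPA2B1 at 139 and HNRNPK at 127 as means over the 4 lines. HNRNPF binds runs of G, HNRNPA2B1 packages nascent transcripts, and HNRNPK binds runs of C. Of the SR proteins in the table, SRSF3, which also aids mRNA export, was the most abundant at 51.0, followed by SRSF7 at 41.5. TRA2A and TRA2B, which bind GA-rich exonic enhancers, were at 21.3 and 16.0. The kinases were low, with CLK2 at 12.4, CLK1 at 6.14, CLK3 at 2.40 and CLK4 at 1.85.

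**Figure D1:**
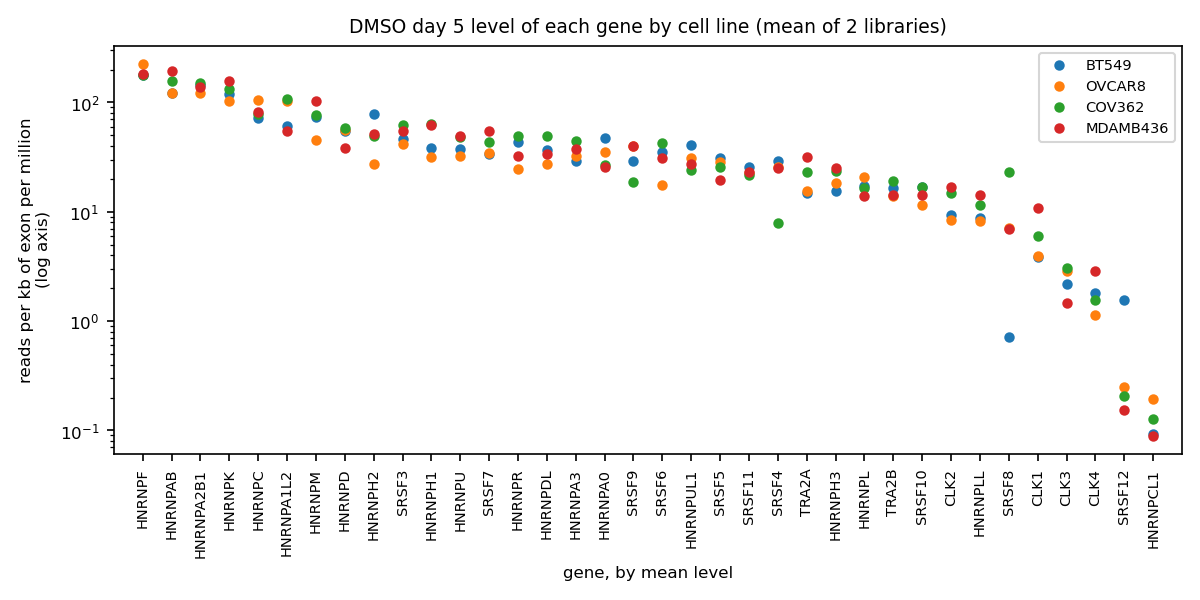
Level of each gene in DMSO at day 5, in reads per kilobase of exon per M reads on a log axis, with genes in order of their mean and 1 point per cell line (mean of 2 libraries). HNRNPF leads with a mean of 190, the CLK kinases lie near the right end, and SRSF8 has the widest spread among genes tested in at least 1 line, from 0.721 in BT549 to 22.9 in COV362.

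The lines differed in these levels. All 31 genes tested in the 4 lines passed the F test between lines at day 5 of DMSO, where 98.4% of all 4721 genes did, so passing says little of the regulators. SRSF8, an SR protein gene without introns that arose as a copy, ranged most among the genes tested in any line, being 31.8-fold higher in COV362 than in BT549. SRSF4, a long SR protein, was 3.68-fold higher in BT549 (29.2 reads per kilobase of exon per M reads) than in COV362 (7.93), and its DMSO libraries of day 5 were at 7.57 and 7.60 RPKM in BT549 against 2.05 and 2.07 in COV362 (F test between lines, adjusted p = 1.02e-16). The other genes with the smallest adjusted p were HNRNPM (1.08e-13), SRSF9 (3.86e-13), HNRNPA0 (1.2e-12) and HNRNPH2 (3.01e-12).

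The genes share features of annotation that the choice by symbol did not use. At least 1 transcript marked for nonsense-mediated decay in GENCODE v29 was present in 27 of the 36 (75%), against 40.6% of the 11958 protein-coding genes of the table. Retained-intron transcripts occurred in 24 of 36 (66.7%), against 55.8%. The median gene had 11.5 transcripts against 7, a transcript GC content of 42.5% against 50.2%, and exons over 41.8% of its span against 16.9%. These are descriptions of the annotation, and well-studied genes have more annotated transcripts.

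Promoters from RefSeq (GRCh38.p14) were matched by symbol for 35 of the 36 genes, and 7 motifs were searched on both strands in the 250 bases before the start. The E-box CACGTG was found in 8 of the 35 (22.9%), in 6.34% of all 35116 promoters and in 9.63% of 5627 promoters of tested genes. The CCAAT box (letters CCAAT) was in 45.7% of the 35, 32.0% of all and 36.6% of tested genes. The GC box GGGCGG was in 65.7%, 42.6% and 71.3%, the ETS-type CCGGAAG in 14.3% and 8.52% (and in 1013 of the 5627 promoters of tested genes), and the TATA box TATAAA in 14.3%, 10.7% and 4.89%. The NRF1-type and YY1-type motifs were in none of the 35, and in 1.03% and 0.373% of all promoters. None of these motifs contains another. A match is a description of letters and not a bound site.

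The E-box windows of 7 of these 8 genes are shown because this motif had the largest ratio to the share in all promoters, a choice made after the shares were seen. Each line gives 30 bases, 5′ to 3′ on the strand of the gene, with the E-box in capitals. CLK2 lies at chr1:155273559-155273588 (minus strand), HNRNPA3 at chr2:177212711-177212740 (plus), HNRNPD at chr4:82374001-82374030 (minus), HNRNPDL at chr4:82430364-82430393 (minus), HNRNPH2 at chrX:101408168-101408197 and chrX:101408201-101408230 (plus), HNRNPH3 at chr10:68331631-68331660 (plus) and HNRNPM at chr19:8444921-8444950 (plus).
CLK2: caactacgtgagCACGTGgtggcgcgcgcg
HNRNPA3: cggaaaacgcgtCACGTGacgactggcccc
HNRNPD: gcgctctcgcgtCACGTGaccgggacgcgc
HNRNPDL: agaggcccggggCACGTGcagaaaggagcc
HNRNPH2, upstream copy: ccgagagttgctCACGTGaccgagatctca
HNRNPH2, downstream copy: gacgtaggcgctCACGTGattactcgctta
HNRNPH3: tgccggtcgaacCACGTGgggccctttccg
HNRNPM: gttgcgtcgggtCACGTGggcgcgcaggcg
The 100 bases before the start of HNRNPH1, the gene with the largest rise in BT549 and OVCAR8 at day 5, are at chr5:179634785-179634884 (minus strand) and hold none of the 7 motifs.
HNRNPH1: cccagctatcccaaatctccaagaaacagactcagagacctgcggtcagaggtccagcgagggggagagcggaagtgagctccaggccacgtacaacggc

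The first question was whether inhibition of PRMT5 changed the RNA of the regulators. Over the 6 comparisons of drug and vehicle, the answer differed by line. In OVCAR8, more regulators rose than fell on both days. In BT549, COV362 and MDAMB436 the numbers that rose and fell were closer to each other. Over the 33 tested genes, 5 rose in 4 comparisons (HNRNPH3, HNRNPA3, SRSF11, TRA2B and CLK1), 3 fell in at least 4 (HNRNPR, HNRNPA0 and HNRNPF), 12 rose in at least 1 and fell in at least 1 other, and HNRNPC, HNRNPLL and CLK3 passed in none of the 6. Such counts were not made for all genes, so they do not set the regulators apart. In a single comparison, 9.22% to 39.3% of all genes rose and 10.8% to 35.1% fell. HNRNPC binds runs of U, and HNRNPLL controls splicing in lymphocytes.

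**Figure D2:**
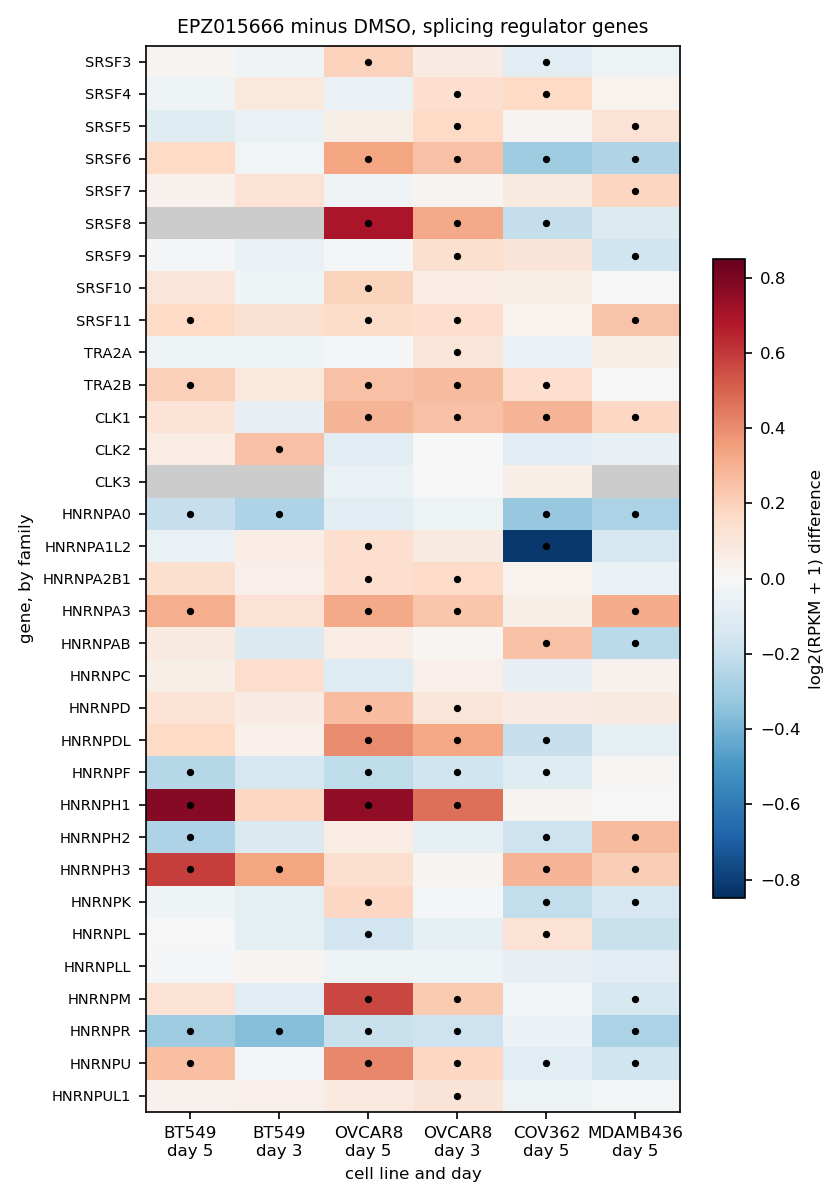
Change in log2(RPKM + 1), EPZ015666 minus DMSO, for the 33 tested genes (by family) in the 6 drug comparisons. Red is higher under the drug, blue lower and grey not tested, and a dot marks an adjusted p under 0.05. HNRNPH1 is darkest red in BT549 and OVCAR8 at day 5 (0.77 and 0.75), and HNRNPA1L2 darkest blue in COV362 (-0.82).

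In OVCAR8 at day 3, 17 of the 33 tested genes rose (51.5%) and 2 fell (6.06%). Over all 6328 genes 15.6% rose and 21.4% fell, so the regulators rose at a share above the background and fell at one below it. Their median change was 0.105, against -0.009 for all genes. The 17 held 6 of 9 SR proteins, both SR-like genes, CLK1 and 8 hnRNPs. At day 5, 16 rose (48.5%) and 3 fell (9.09%), against 21.1% and 35.1% of all genes, with a median of 0.137 against -0.043. No called gene of either day had overlapping groups, and the same held for the called regulators in every comparison of 2 groups. Groups that lie apart therefore add no support to a call here or below, and the share over all genes is not given. Without EPZ015666 day 5 replicate B, the library with 4.55% ribosomal locus reads, 13 rose and 2 fell at day 5, and after values were corrected for GC content and span 17 rose and 6 fell. At day 3 the 19 calls came to 10, 9, 12 and 12 without DMSO replicate A, DMSO replicate B, EPZ015666 replicate A and EPZ015666 replicate B of that day, and 9 genes passed in each leave-one-out fit.

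BT549 held 31 tested genes, of which 6 rose (19.4%) and 4 fell (12.9%) at day 5, where 17.7% of all 6249 genes rose and 22.7% fell. At day 3, 2 rose and 2 fell (6.45% each), where 9.22% and 10.8% did. The shares that rose were near or below the background on both days, with medians of 0.047 and -0.020. The 10 calls of day 5 came to 3, 5, 4 and 6 without DMSO replicate A, DMSO replicate B, EPZ015666 replicate A and EPZ015666 replicate B of that day, and HNRNPH1 and HNRNPH3 passed in each of these fits. The 4 calls of day 3 came to 2 without EPZ015666 day 3 replicate B, to 13 in 1 fit of all 24 libraries and to 1 in a fit of the 4 libraries alone. Without EPZ015666 day 3 replicate A, the library with 1.39% ribosomal locus reads, 3 rose and 2 fell.

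COV362 had 6 of 33 genes that rose (18.2%) and 10 that fell (30.3%), where 39.3% of all 6300 genes rose and 31.5% fell. The share that rose was below the background, and the share that fell was close to it, with a median of -0.022 against 0.032. After the GC and span correction, 5 rose and 15 fell, without the shares of all genes under that correction. The 16 calls came to 10 without DMSO replicate B, and 10 genes (CLK1, HNRNPA0, HNRNPA1L2, HNRNPAB, HNRNPDL, HNRNPH3, HNRNPK, SRSF4, SRSF6 and SRSF8) passed with any 1 library left out. In MDAMB436, 7 of 32 rose (21.9%) and 8 fell (25%), where 19.0% of 6251 genes rose and 23.2% fell. After the GC and span correction 5 rose and 12 fell, again without such shares. The 15 calls of limma came to 0 without EPZ015666 replicate A (12 at an unadjusted p under 0.05), to 3 without EPZ015666 replicate B, to 9 without DMSO replicate A and to 10 without DMSO replicate B, so no call in this line held in all 4 fits.

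The hnRNP F/H family, which binds runs of G, held the largest rise among the tested regulators and also members that fell. HNRNPH1 lies on chromosome 5 from 179614178 to 179634784 on the minus strand (GRCh38, GENCODE v29). Its DMSO libraries in BT549 at day 5 were at 17.9 and 17.7 RPKM and its drug libraries at 31.7 and 30.6. Both drug libraries lay far above both vehicle libraries (1.75-fold, log2 change 0.77 ± 0.0563 SE, adjusted p = 0.000119). In OVCAR8 at day 5 the DMSO libraries were at 14.7 and 14.8 RPKM and the drug libraries at 24.3 and 26.8, a rise of the same order (1.73-fold, log2 change 0.75 ± 0.0451 SE, adjusted p = 7.21e-05).

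At day 3, HNRNPH1 in OVCAR8 was at 20.4 and 20.7 RPKM in DMSO and at 28.9 and 28.6 under the drug, again without overlap (1.40-fold, adjusted p = 0.00078). The same gene in BT549 at day 3 was at 24.4 and 22.99 in DMSO and at 25.8 and 27.9 under the drug, which did not pass (1.13-fold, adjusted p = 0.0694), although it did on recovered reads with limma-voom (adjusted p = 0.0197). The other lines showed no such separation. COV362 had 28.5 and 30.3 in DMSO and 29.7 and 30.0 under the drug (adjusted p = 0.646), and MDAMB436 had 28.0 and 29.1 against 29.01 and 28.3 (adjusted p = 0.939), so the groups overlapped in both. The effects at day 5 differed between the 4 lines (F test, adjusted p = 5.65e-08), at 0.77, 0.75, 0.02 and 0.00 in BT549, OVCAR8, COV362 and MDAMB436.

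HNRNPH3, a shorter relative of HNRNPH1, rose in 3 of the 4 lines. BT549 at day 5 had 7.21 and 6.54 RPKM in DMSO and 11.0 and 10.6 under the drug (1.57-fold, log2 change 0.59 ± 0.0703 SE, adjusted p = 0.000889). At day 3 in that line it went from 7.65 and 7.13 to 9.04 and 10.2 (1.30-fold, adjusted p = 0.0179). These groups did not overlap on either day. In COV362 it went from 10.4 and 10.9 to 13.3 and 13.1 (1.24-fold, adjusted p = 0.00163), and in MDAMB436 from 11.0 and 11.6 to 12.8 and 13.5 (1.17-fold, adjusted p = 0.027). In OVCAR8 its changes of 0.14 at day 5 and 0.02 at day 3 did not pass (adjusted p = 0.0764 and 0.801). HNRNPH3 overlaps PBLD and RUFY2 on the other strand. Without 1 library, the MDAMB436 rise did not pass in 3 of 4 fits (adjusted p up to 0.147) and the BT549 rise of day 3 in 2 of 8 (up to 0.0818).

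HNRNPF, the most abundant of the 36 by exon length, moved the other way. BT549 at day 5 went from 24.9 and 24.05 RPKM to 20.6 and 20.4 (0.837-fold, adjusted p = 0.0058). In OVCAR8 at day 5 HNRNPF went from 30.98 and 31.01 to 26.3 and 26.8 (0.856-fold, adjusted p = 0.000887), and at day 3 it was 0.884-fold of DMSO (adjusted p = 0.00401). It also fell in COV362, to 0.929-fold (adjusted p = 0.0183), and was at 1.01-fold in MDAMB436 (adjusted p = 0.869). All drug libraries lay below their DMSO libraries in the 4 comparisons where it fell. With 1 library left out the adjusted p was up to 0.052 in BT549, and the COV362 fall passed in 1 of 4 fits (up to 0.0949).

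HNRNPH2, which lies on chromosome X and shares most of its sequence with HNRNPH1, had different signs in different lines. It fell in BT549 at day 5, from 30.2 and 29.1 RPKM to 24.9 and 24.2 (0.830-fold, adjusted p = 0.0244), and in COV362 (0.879-fold, adjusted p = 0.0305). In MDAMB436 it rose from 19.1 and 20.2 to 23.8 and 23.9 (1.22-fold, adjusted p = 0.00983). The annotation also holds a read-through gene with RPL36A on the same strand, whose reads cannot be separated from those of HNRNPH2. The BT549 call did not pass without any single one of the 4 libraries of day 5 (adjusted p = 0.0747 to 0.123), and those of COV362 and MDAMB436 passed in 2 of 4 such fits each (up to 0.122 and 0.0562).

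**Figure D3:**
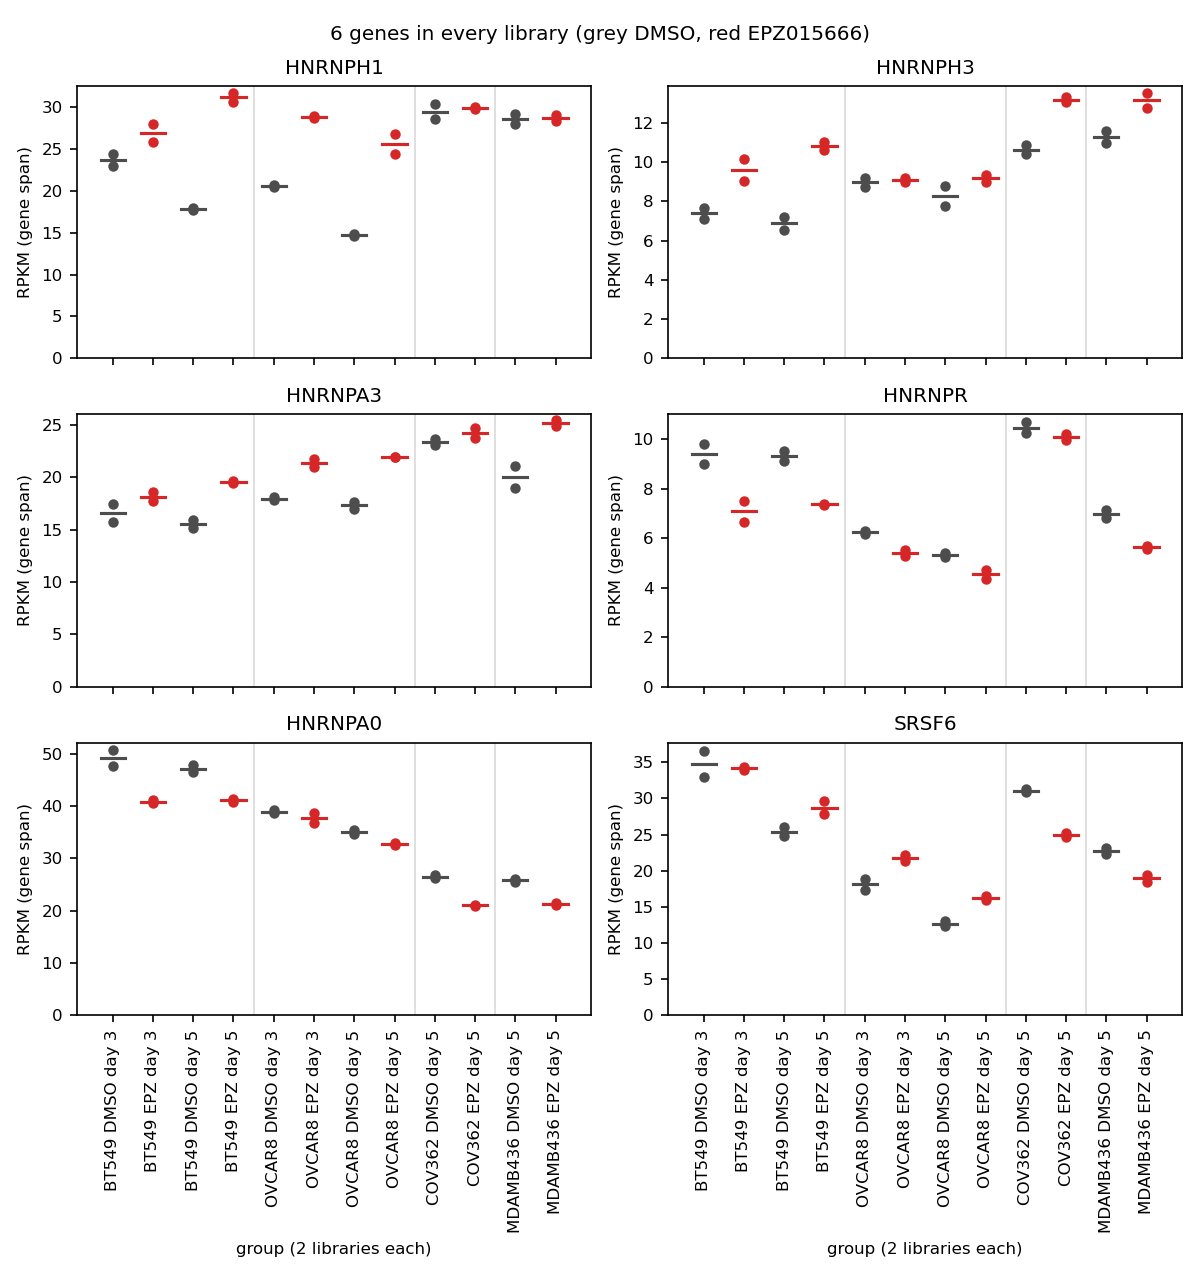
RPKM of HNRNPH1, HNRNPH3, HNRNPA3, HNRNPR, HNRNPA0 and SRSF6 in each of the 24 libraries, by group, with DMSO in grey, EPZ015666 in red and a bar at the mean of 2 libraries. In BT549 and OVCAR8 at day 5 the drug libraries of HNRNPH1 lie between 24.3 and 31.7 and the DMSO libraries between 14.7 and 17.9, while those of COV362 and MDAMB436 lie between 28.0 and 30.3 in both groups.

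In the hnRNP A/B family, HNRNPA3, which binds RNA elements that direct transport of mRNAs, rose in 3 lines. Its BT549 libraries of day 5 were at 15.9 and 15.2 RPKM in DMSO and at 19.6 and 19.4 under the drug (1.26-fold, log2 change 0.31 ± 0.0602 SE, adjusted p = 0.00634). In OVCAR8 at day 5 it went from 17.6 and 17.00 to 22.0 and 21.9 (1.27-fold, adjusted p = 0.000384), and at day 3 from 17.8 and 18.1 to 21.003 and 21.7 (1.19-fold, adjusted p = 0.0024). In MDAMB436 it went from 19.00 and 21.1 to 24.9 and 25.5 (1.26-fold, adjusted p = 0.0145). No groups overlapped here. Leaving out 1 library gave an adjusted p of up to 0.0509 in BT549 and 0.0628 in MDAMB436. COV362, at 23.1 and 23.6 against 23.8 and 24.7, did not pass (adjusted p = 0.205). GENCODE lists 16 pseudogene copies of HNRNPA3, so a part of its reads may come from copies.

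HNRNPA0, a protein encoded by a gene without introns that binds AU-rich elements, fell in 3 lines. In COV362 it went from 26.3 and 26.8 RPKM to 21.2 and 20.8 (0.791-fold, log2 change -0.32 ± 0.0261 SE, adjusted p = 0.000738). In MDAMB436 it went from 25.6 and 26.03 to 21.1 and 21.4 (0.824-fold, adjusted p = 0.00736). In BT549 it fell from 46.6 and 47.9 to 41.5 and 40.8 at day 5 (0.871-fold, adjusted p = 0.0194) and to 0.831-fold at day 3 (adjusted p = 0.0134). The drug libraries lay below the DMSO libraries in all 4. In OVCAR8 its changes of -0.09 at day 5 and -0.05 at day 3 did not pass (adjusted p = 0.0613 and 0.34). The BT549 call of day 5 did not pass without any single one of the 4 libraries of that day (adjusted p = 0.0711 to 0.127), and those of BT549 at day 3 and of MDAMB436 each failed in 1 fit (0.0559 and 0.0554).

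HNRNPA1L2, a retrotransposed copy in this family whose reads may come from related copies, had the largest change of the 33 tested genes over the 6 comparisons. In COV362 both DMSO libraries were at 109 RPKM, and the drug libraries were at 58.8 and 63.4 (0.563-fold, log2 change -0.82 ± 0.0433 SE, adjusted p = 0.000295). In OVCAR8 at day 5 it rose from 106 and 101 to 114 and 115 (1.10-fold, adjusted p = 0.0488), a call that passed in 2 of the 8 fits with 1 library left out (adjusted p up to 0.194), and in BT549 and MDAMB436 it did not pass. HNRNPAB, which binds single-stranded DNA and RNA, moved in opposite directions in 2 lines. It rose in COV362, from 50.6 and 50.8 to 61.5 and 59.1 (1.19-fold, adjusted p = 0.00231), and fell in MDAMB436, from 63.6 and 62.3 to 53.7 and 53.4 (0.851-fold, adjusted p = 0.0097), a fall kept in 2 of 4 fits with 1 library left out. The effects differed between lines (F test, adjusted p = 6.17e-06). HNRNPA2B1 rose in OVCAR8, 1.11-fold at day 5 and 1.12-fold at day 3 (adjusted p = 0.0221 and 0.0237), and its effects at day 5 did not pass the F test between lines (adjusted p = 0.107). With 1 library left out these rises had adjusted p up to 0.0978 and 0.106.

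HNRNPR, an RNA-binding protein close to SYNCRIP, fell in 5 of the 6 comparisons. In BT549 it went from 9.53 and 9.13 RPKM to 7.35 and 7.38 at day 5 (0.790-fold, log2 change -0.30 ± 0.0641 SE, adjusted p = 0.00903), and from 9.79 and 8.99 to 6.66 and 7.495 at day 3 (0.754-fold, adjusted p = 0.0101). In OVCAR8 it went from 5.39 and 5.25 to 4.73 and 4.36 at day 5 (0.854-fold, adjusted p = 0.00822), and from 6.29 and 6.17 to 5.28 and 5.52 at day 3 (0.867-fold, adjusted p = 0.0176). In MDAMB436 it went from 6.83 and 7.15 to 5.55 and 5.69 (0.805-fold, adjusted p = 0.00814). Drug and DMSO libraries were fully apart in these 5. Without 1 library, the adjusted p was up to 0.0572 in BT549 at day 5, 0.0886 in OVCAR8 at day 3 and 0.0501 in MDAMB436, and the other 2 calls passed in each such fit. COV362, with 10.2 and 10.7 in DMSO and 9.98 and 10.2 under the drug, did not pass (adjusted p = 0.229).

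Of the other hnRNPs, HNRNPM, a splicing repressor active in epithelial-mesenchymal switching of exons, had its largest change in OVCAR8. Its DMSO libraries of day 5 were at 5.78 and 5.70 RPKM and its drug libraries at 9.17 and 8.82 (1.57-fold, log2 change 0.57 ± 0.0287 SE, adjusted p = 4.61e-05). At day 3 it went from 9.21 and 9.30 to 11.1 and 10.9 (1.19-fold, adjusted p = 0.00206). In MDAMB436 it fell, from 13.1 and 13.2 to 11.8 and 11.95 (0.902-fold, adjusted p = 0.0353), a call that no fit with 1 library left out kept (adjusted p up to 0.216). The day 5 effects differed between lines (F test, adjusted p = 3.35e-08).

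HNRNPU, a scaffold protein that ties RNA to chromatin, also split the lines. It rose from 35.01 and 35.7 RPKM to 42.6 and 42.4 in BT549 at day 5 (1.20-fold, adjusted p = 0.00762), and from 30.2 and 30.5 to 40.9997 and 40.2 in OVCAR8 at day 5 (1.34-fold, adjusted p = 0.000101). It fell from 46.2 and 47.2 to 41.3 and 41.5 in MDAMB436 (0.887-fold, adjusted p = 0.0218) and to 0.940-fold in COV362 (adjusted p = 0.0388). The groups were apart in all 4, and the F test between lines gave an adjusted p of 2.01e-07. HNRNPU also rose in OVCAR8 at day 3, from 37.7 and 38.0 RPKM to 43.4 and 42.5. Without 1 library, the adjusted p of HNRNPU was up to 0.0593 in BT549 and 0.144 in MDAMB436, and the COV362 fall passed in none of the 4 such fits (up to 0.187). HNRNPDL and HNRNPD, relatives that bind AU-rich RNA, rose in OVCAR8 at day 5 (1.34-fold and 1.21-fold, adjusted p = 0.000676 and 0.000428) and at day 3 (1.26-fold and 1.08-fold, adjusted p = 0.0028 and 0.0244, the latter up to 0.132 without 1 library), and HNRNPDL fell in COV362 (0.872-fold, adjusted p = 0.00881). HNRNPK fell in COV362 from 53.4 and 54.0 to 46.0 and 46.5 (0.862-fold, adjusted p = 0.00205). It rose in OVCAR8 at day 5 from 41.9 and 41.6 to 47.6 and 46.7 (1.13-fold, adjusted p = 0.00441), where DMSO at day 3 was at 48.8 and 47.2, and both of these calls passed with any 1 library left out. Its fall in MDAMB436 (0.903-fold, adjusted p = 0.0411) passed in none of the 4 such fits. HNRNPL, which binds CA repeats, was 0.881-fold of DMSO in OVCAR8 at day 5 (log2 change -0.16, adjusted p = 0.0335). That call did not hold with median-of-ratios scaling or the GC and span correction (adjusted p = 0.128 and 0.125). It was also lost with DMSO replicate B left out, at a change of -0.10. In COV362 HNRNPL rose, from 7.11 and 7.13 RPKM to 8.10 and 7.59 (log2 change 0.12), a call that depended on single libraries.

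Of the SR proteins in OVCAR8, 5 of 9 tested genes rose at day 5 and 6 of 9 at day 3, with none falling by limma, where 21.1% and 15.6% of all genes rose. At an unadjusted p under 0.05 the 33 tested genes together had 18 rises and 5 falls at day 5, and 17 and 3 at day 3. In BT549 1 of 8 rose at day 5 and 0 at day 3 (with 9 of all 31 tested genes at an unadjusted p under 0.05 that day, and 8 genes called by limma-voom), in COV362 1 rose and 3 fell, and in MDAMB436 3 rose and 2 fell. All genes rose at shares of 17.7% and 9.22% in BT549, 39.3% in COV362 and 19.0% in MDAMB436, and the difference of these counts between lines was not tested. SRSF8 had the largest SR change. In OVCAR8 at day 5 it went from 6.98 and 7.33 RPKM to 12.1 and 12.2 (1.70-fold, log2 change 0.69 ± 0.0305 SE, adjusted p = 3.34e-05), and at day 3 from 8.99 and 8.91 to 11.3 and 11.5 (1.28-fold, adjusted p = 0.000742). In COV362, where SRSF8 is most abundant, it fell from 23.4 and 22.4 to 19.9 and 19.8 (0.864-fold, adjusted p = 0.0045).

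SRSF6, an SR protein known for the choice of alternative exons, had the same pattern of signs. It rose in OVCAR8 from 12.3 and 13.03 RPKM to 16.5 and 15.9 at day 5 (1.28-fold, adjusted p = 0.00232) and from 18.9 and 17.3 to 21.3 and 22.2 at day 3 (1.20-fold, adjusted p = 0.0114). It fell in COV362 from 31.3 and 30.9 to 24.7 and 25.3 (0.804-fold, log2 change -0.30 ± 0.0261 SE, adjusted p = 0.000858) and in MDAMB436 from 23.2 and 22.4 to 18.4 and 19.4 (0.831-fold, adjusted p = 0.0129). The libraries were apart in each case, and the effects at day 5 differed between lines (F test, adjusted p = 4.14e-06). Without 1 library, the OVCAR8 rise of day 3 had an adjusted p of up to 0.0595 and the MDAMB436 fall of up to 0.0825.

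SRSF11, a larger member of the SR group, rose in BT549 at day 5 (1.15-fold, adjusted p = 0.016), in OVCAR8 at day 5 and day 3 (1.14-fold and 1.13-fold, adjusted p = 0.0198 and 0.0383) and in MDAMB436, from 4.02 and 4.27 RPKM to 5.09 and 5.06 (1.22-fold, adjusted p = 0.0109). Each of these 4 calls was lost in some fits with 1 library left out, with adjusted p up to 0.115 in BT549, 0.0862 and 0.157 in OVCAR8 at day 5 and day 3, and 0.0576 in MDAMB436. SRSF4 rose in COV362, where its level is lowest, from 2.05 and 2.07 to 2.44 and 2.43 (1.18-fold, adjusted p = 0.0042), and in OVCAR8 at day 3 (1.12-fold, adjusted p = 0.00619). SRSF7, active in splicing and mRNA export, passed in 1 comparison, MDAMB436, with a 1.14-fold rise (adjusted p = 0.0241) that no fit with 1 library left out kept. SRSF3, SRSF5, SRSF9 and SRSF10 each passed in 1 or 2 comparisons with folds between 0.884 and 1.16.

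TRA2B lies on chromosome 3 from 185915906 to 185938136 on the minus strand. It rose in OVCAR8 at day 5, from 7.41 and 7.25 RPKM to 9.08 and 8.68 (1.21-fold, log2 change 0.25 ± 0.034 SE, adjusted p = 0.00151), and at day 3, from 8.93 and 8.67 to 10.6 and 11.0 (1.23-fold, adjusted p = 0.00206). It also rose in BT549 at day 5, from 8.65 and 8.84 to 10.4 and 9.997 (1.17-fold, adjusted p = 0.0109), and in COV362, from 10.2 and 10.2 to 11.1 and 11.7 (1.11-fold, adjusted p = 0.0151). All 4 rises had drug libraries above both DMSO libraries. In MDAMB436 the libraries overlapped, at 7.65 and 7.48 in DMSO against 7.37 and 7.75 (adjusted p = 0.976), and the effects of day 5 differed between lines (F test, adjusted p = 0.00204). For BT549 at day 3 the 1.07-fold difference did not pass (adjusted p = 0.177). Without 1 library, the BT549 and COV362 rises had adjusted p values of up to 0.0973 and 0.0686. TRA2A passed in 1 comparison, OVCAR8 at day 3, with a 1.11-fold rise (adjusted p = 0.0208, up to 0.114 without 1 library).

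The kinase genes did not move as a group. CLK1 rose in 3 lines. In COV362 it went from 2.67 and 2.59 RPKM to 3.34 and 3.52 (1.30-fold, log2 change 0.29 ± 0.0333 SE, adjusted p = 0.00199), and in OVCAR8 from 1.60 and 1.89 to 2.40 and 2.31 at day 5 (1.35-fold, adjusted p = 0.00412) and from 2.57 and 2.56 to 3.28 and 3.16 at day 3 (1.26-fold, adjusted p = 0.0125). In MDAMB436 it went from 4.93 and 4.53 to 5.38 and 5.58 (1.16-fold, adjusted p = 0.0393). No groups overlapped in these 4 comparisons. In fits with 1 library left out, the adjusted p was up to 0.0613 in OVCAR8 at day 3 and 0.173 in MDAMB436. In BT549 neither day passed (1.14-fold and 0.931-fold), and the effects at day 5 did not pass the F test between lines (adjusted p = 0.205).

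CLK2 lies on chromosome 1 from 155262868 to 155278491 on the minus strand and overlaps HCN3 on the other strand. It rose in BT549 at day 3, from 1.83 and 2.01 RPKM to 2.50 and 2.43 (1.29-fold, log2 change 0.25 ± 0.0431 SE, adjusted p = 0.00946), with the drug libraries above both DMSO libraries. In the other 5 comparisons its changes were -0.09 to 0.07 and none passed. In COV362 it passed as a fall on recovered reads with limma-voom (-0.12, adjusted p = 0.0416) and after the GC and span correction (-0.13, adjusted p = 0.0464). The F test between lines at day 5 gave an adjusted p of 0.0685, and the difference between day 5 and day 3 in BT549, -0.18, did not pass (adjusted p = 0.117) except in 1 fit of 24 libraries (adjusted p = 0.0346). In a fit of the 4 libraries of BT549 day 3 alone, the rise had an adjusted p of 0.0556. CLK3 was at 0.522 to 1.43 RPKM over all libraries and did not pass where it was tested.

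CLK4, the closest relative of CLK1, was too low for the test on RPKM in every line, at 0.293 to 1.04 RPKM. In each of the 6 comparisons both drug libraries nevertheless lay above both DMSO libraries. How many of all genes did so was not counted. The libraries of BT549 at day 5 were at 0.453 and 0.563 in DMSO and at 0.765 and 0.794 under the drug, and those of OVCAR8 at day 5 at 0.293 and 0.357 against 0.553 and 0.584. By exon length CLK4 was also low, at 1.85 in DMSO at day 5 as a mean over the 4 lines. Between 199 and 991 of its reads were recovered in each of the libraries of the comparisons below. A limma-voom fit on recovered reads, an alternative with a minimum of 1 CPM, gave rises of CLK4 in 5 of the 6.

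In that fit CLK4 changed by 0.63 ± 0.114 SE in BT549 at day 5 (adjusted p = 0.000237) and by 0.79 ± 0.105 SE in OVCAR8 at day 5 (adjusted p = 7.33e-06). The changes were 0.46 in OVCAR8 at day 3 (adjusted p = 0.000607), 0.43 in COV362 (adjusted p = 0.000613) and 0.28 in MDAMB436 (adjusted p = 0.00368). For BT549 at day 3 its change of 0.24 did not pass (adjusted p = 0.104). CLK4 was singled out after its values were seen. The same fit gave falls of CLK3 in MDAMB436 (-0.27, adjusted p = 0.00501) and of SRSF12, an SR protein that opposes others, in BT549 at day 5 (-0.64, adjusted p = 0.00482), where SRSF12 had 99 and 125 reads under the drug and 183 and 163 in DMSO.

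The effects of day 5 were also averaged over the 4 lines in 1 fit of 24 libraries. Of 31 genes, 12 rose (38.7%) and 6 fell (19.4%), where 34.8% of all 4721 genes rose and 36.9% fell. The share that rose was near the background and the share that fell was below it. After the GC and span correction 11 rose and 10 fell, for which the shares of all genes are not given. The largest rises were HNRNPH1 (0.39 ± 0.0235 SE, adjusted p = 7.72e-10), HNRNPH3 (0.30, adjusted p = 2.44e-07), HNRNPA3 (0.25, adjusted p = 2.41e-07), CLK1 (0.22, adjusted p = 1.18e-05) and SRSF11 (0.148, adjusted p = 2.18e-06), followed by TRA2B (0.147, adjusted p = 2.02e-06). The largest falls were HNRNPA1L2 (-0.22), HNRNPA0 (-0.22, adjusted p = 1.61e-08), HNRNPR (-0.20, adjusted p = 2.27e-06) and HNRNPF (-0.14, adjusted p = 3.36e-07). HNRNPLL (-0.057) and HNRNPK (-0.055) fell less. The mean of HNRNPA1L2 comes mostly from COV362 (-0.82), with -0.06, 0.14 and -0.14 in BT549, OVCAR8 and MDAMB436. The mean of HNRNPH1 comes from lines with effects of 0.77 and 0.75 and lines with effects of 0.02 and 0.00. CLK2 averaged -0.05 (adjusted p = 0.0634).

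The F test asked whether the day 5 effects differed between lines. Of 31 genes, 23 passed (74.2%), against 74.7% of all genes, so the regulators varied between lines about as often as other genes. Besides HNRNPH1, HNRNPM, HNRNPU, SRSF6 and HNRNPAB, HNRNPA1L2 had the widest range of effects, 0.96 on the log2 scale (adjusted p = 6.71e-06).

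The vehicle libraries of BT549 and OVCAR8 also changed between day 3 and day 5, which bears on the drug comparisons of day 5. In OVCAR8 under DMSO, 19 of 33 genes were lower at day 5 than at day 3 (57.6%) and 2 were higher (6.06%), where 15.9% of all genes were lower and 20.7% higher. The share that was lower stood above the background, and the median was -0.147 against 0.019. HNRNPM went from 9.21 and 9.30 RPKM at day 3 to 5.78 and 5.70 at day 5 (0.621-fold), SRSF6 to 0.699-fold, CLK1 to 0.682-fold and HNRNPH1 to 0.716-fold (adjusted p = 0.0018). HNRNPC and SRSF4 were higher, 1.12-fold and 1.20-fold. In BT549 under DMSO, 5 of 31 were lower (16.1%) and none higher by limma, where 6.02% of all genes were lower and 10.7% higher. At an unadjusted p under 0.05, 9 were lower and 3 higher, and on recovered reads 11 passed. The 5 were SRSF6 (0.730-fold), HNRNPH1 (0.751-fold, adjusted p = 0.00819), HNRNPAB (0.815-fold), HNRNPM (0.836-fold) and HNRNPU (0.870-fold). Without DMSO day 5 replicate A, limma called 0 of these 31 (5 at an unadjusted p under 0.05), without DMSO day 5 replicate B 1 and without DMSO day 3 replicate A 3.

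**Figure D4:**
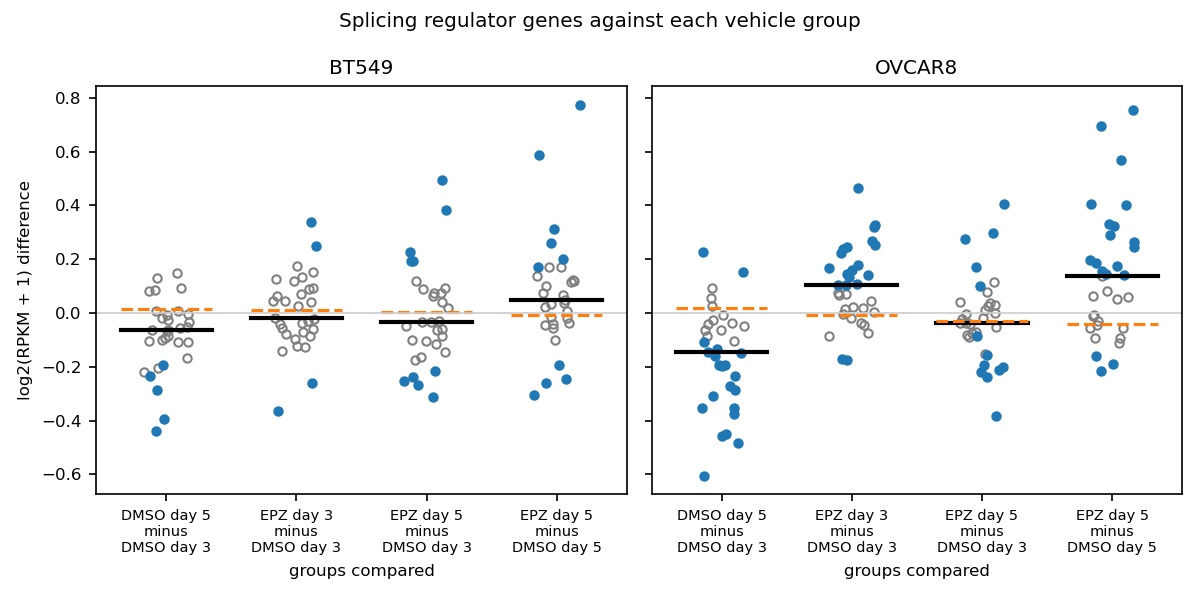
Change in log2(RPKM + 1) of each tested gene for 4 pairs of groups in BT549 (31 genes) and OVCAR8 (33 genes). Filled points have an adjusted p under 0.05, the black bar is the median of these genes and the dashed orange bar that of all tested genes. In OVCAR8 the median is -0.147 for DMSO day 5 against DMSO day 3, 0.137 for the drug against DMSO of day 5 and -0.038 against DMSO of day 3.

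The drug libraries of day 5 were therefore also set against DMSO of day 3, a comparison that shares libraries with the others. In OVCAR8, 5 of 33 genes were higher (15.2%) and 8 lower (24.2%), close to the 15.1% and 26.6% of all genes, with a median of -0.038 against -0.031. The 5 were SRSF8 (1.36-fold, adjusted p = 0.000289), HNRNPH1 (1.24-fold, adjusted p = 0.00348), HNRNPA3 (1.22-fold, adjusted p = 0.00132), SRSF4 (1.15-fold) and HNRNPU (1.07-fold). The 8 lower were HNRNPA0, HNRNPAB, HNRNPD, HNRNPF, HNRNPL, HNRNPR, SRSF3 and SRSF7. Of these, HNRNPD and SRSF3 had risen against DMSO of day 5. HNRNPD was at 21.3 and 21.6 RPKM under the drug at day 5 and at 23.0 and 22.6 in DMSO at day 3. SRSF3 was at 30.3 and 30.1 against 34.5 and 33.1. The drug libraries of SRSF6 and CLK1 also lay below both DMSO libraries of day 3, and neither gene passed. HNRNPM, at 9.17 and 8.82 RPKM under the drug at day 5, lay just below its DMSO libraries of day 3 and did not pass (0.972-fold, adjusted p = 0.332). TRA2B was at 1.01-fold of DMSO at day 3 (adjusted p = 0.805). The main comparisons of day 5 and day 3 each use DMSO of their own day, while here the groups differ in drug and in time, which cannot be told apart.

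In BT549 the same comparison had 5 of 31 genes higher (16.1%) and 5 lower (16.1%) than in DMSO of day 3, near the 13.7% and 16.7% of all genes. HNRNPH3 was at 1.46-fold (adjusted p = 0.00306), HNRNPH1 at 1.31-fold (adjusted p = 0.00349) and HNRNPA3 at 1.18-fold (adjusted p = 0.0295). HNRNPR (0.785-fold), HNRNPA0 (0.836-fold) and HNRNPF (0.842-fold) were lower. The 10 calls came to 2, HNRNPH1 and HNRNPH3, without either replicate A or replicate B of EPZ015666 at day 5. HNRNPH1 was thus above the vehicle of either day in both lines.

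Whether the drug effect grew between day 3 and day 5 was tested as a difference of effects. In BT549, 1 of 31 genes had a higher effect at day 5 (3.23%) and none a lower one by limma, where 1.52% and 4.45% of all genes did. That gene was HNRNPH1, with a difference of 0.60 ± 0.0796 SE (adjusted p = 0.0173). At an unadjusted p under 0.05, 5 were higher and 1 lower, and on recovered reads 3 genes passed. In OVCAR8, 4 of 33 had a higher effect (12.1%) and 1 a lower one (3.03%), where 2.31% and 5.15% did. They were SRSF8 (0.37, adjusted p = 0.0257), HNRNPM (0.34, adjusted p = 0.0257), HNRNPH1 (0.29, adjusted p = 0.0498) and HNRNPU (0.23, adjusted p = 0.0343), and SRSF4 was lower (-0.20, adjusted p = 0.0354). With median-of-ratios scaling 7 were higher and 0 lower. With any 1 library of OVCAR8 left out limma called 0 genes (8 to 12 at an unadjusted p under 0.05), and on recovered reads 8 passed. In BT549 the HNRNPH1 difference did not pass without any 1 of the 4 libraries of day 5 (adjusted p = 0.064 to 0.111). The 4 genes with a higher effect in OVCAR8 were also lower in DMSO at day 5 than at day 3, and the part of that vehicle change in the result was not tested. Under the drug in OVCAR8, HNRNPM went from 11.1 and 10.9 RPKM at day 3 to 9.17 and 8.82 at day 5. HNRNPH1 went from 28.9 and 28.6 to 24.3 and 26.8, and HNRNPU from 43.4 and 42.5 to 41.0 and 40.2. SRSF8 went up, from 11.3 and 11.5 to 12.1 and 12.2. In BT549, HNRNPH1 under the drug went from 25.8 and 27.9 at day 3 to 31.7 and 30.6 at day 5.

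Related genes of the pathway were counted from lists written with the gene group, when earlier results of these data were known. Of 22 SR-related genes, 18 were tested in BT549, COV362 and MDAMB436 and 19 in OVCAR8. At day 5, 9 rose and 1 fell in BT549, 11 rose and 2 fell in OVCAR8, 12 rose and 1 fell in COV362 and 8 rose and 1 fell in MDAMB436, with medians of 0.16, 0.17, 0.13 and 0.13. In the same order, 17.7%, 21.1%, 39.3% and 19.0% of all genes rose and 22.7%, 35.1%, 31.5% and 23.2% fell. Under DMSO in OVCAR8, 10 of the 19 were lower at day 5 than at day 3 and 0 were higher by limma, where 15.9% of all genes were lower and 20.7% higher. RBM39, a splicing factor related to U2AF, had common effects of 0.40 (adjusted p = 1.58e-10), and ARGLU1, an arginine- and glutamate-rich coactivator, fell (-0.19, adjusted p = 2.70e-08). Among 8 kinases and transport factors of SR proteins, of which 5 were tested, 3 rose in BT549 at day 5, 2 rose and 1 fell in OVCAR8, 3 rose in COV362, and 1 rose and 1 fell in MDAMB436. PRPF4B, a kinase of the spliceosome, rose in all 6 comparisons, with a common effect of 0.44 ± 0.0158 SE (adjusted p = 2.24e-12).

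Of 27 other hnRNP-type and alternative splicing regulators, the day 5 comparisons had 4 rises and 2 falls among 19 tested in BT549, 5 and 3 among 19 in OVCAR8, 3 and 11 among 18 in COV362, and 1 and 4 among 16 in MDAMB436. The shares of all genes that rose and fell were 17.7% and 22.7% in BT549, 21.1% and 35.1% in OVCAR8, 39.3% and 31.5% in COV362, and 19.0% and 23.2% in MDAMB436, and these also apply to the next list. EWSR1, an RNA-binding protein of the FET family, fell in OVCAR8, COV362 and MDAMB436 (-0.39, -0.17 and -0.32). Of 10 genes of nonsense-mediated decay, 5 of 6 tested rose in COV362, 3 rose and 1 fell of 6 in MDAMB436, 1 of 5 rose in BT549 at day 5, and 2 rose and 2 fell of 5 in OVCAR8 at day 5.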

How the data were processed

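The samples were 24 stranded poly(A) RNA-seq libraries in 12 groups of 2. Per the labels, RNA was extracted with the RNeasy Plus Mini Kit and sequenced by Novogene, and the submitters' processing notes name featureCounts and GRCh38. Versions, aligner and use of strand in counting are not given in the sources here, so reads of genes that overlap on opposite strands may be shared. The authors deposited RPKM. Multiplying a value by the gene's full GENCODE v29 span, introns included, gave whole reads, within 0.02 of a read, for 100% of values under 1000 reads (16559 of 16591 genes, 32 without a single span), so genes with long introns have low RPKM, and levels between genes were compared by exon length instead. The recovered reads were 93.9% to 107% of the library totals behind the values, and why some exceed 100% was not tested. Whether reads in introns were counted is not known, so a change in RPKM cannot be assigned to spliced mRNA alone.

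limma 3.58.1 in R 4.3.3, with its trend option, was fitted per line on log2(RPKM + 1) with 1 mean per group, and over all 24 libraries for the 4-line comparisons. Genes needed a mean of at least 1 RPKM, two-sided p-values were adjusted within a comparison by the Benjamini-Hochberg method, and the threshold was 0.05. The code was tested on simulated data. The genes and related lists were chosen with earlier results of these data known. The text names HNRNPH1, TRA2B and CLK2 in every case, up to 5 genes each way per comparison by size of change, up to 5 per F test by adjusted p, and up to 2 each way of a related list, and others only to account for them. Other settings were a pseudocount of 0.1, no filter or a mean of at least 5 RPKM, median-of-ratios scaling, a replicate block, limma-voom on recovered reads (at least 1 CPM), a GC and span correction (lowess, span 0.3), 1 fit of all libraries, a fit of 4 libraries alone and each library left out. A crossed block was added after seeing the data. Promoters are from RefSeq (GRCh38.p14). One E-box window and the values of 1 related gene are not reported here.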

Additional observations from a re-analysis of the deposited data

Results flagged for a closer look

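The drug effects of day 5 differed between the 4 lines by the F test for HNRNPM (adjusted p = 3.35e-08), HNRNPH1 (5.65e-08), HNRNPU (2.01e-07), SRSF6 (4.14e-06), HNRNPAB (6.17e-06) and TRA2B (0.00204). In the order BT549, OVCAR8, COV362 and MDAMB436, the log2 effects were 0.12, 0.57, -0.02 and -0.14 for HNRNPM, 0.77, 0.75, 0.02 and 0.00 for HNRNPH1, and 0.26, 0.41, -0.09 and -0.17 for HNRNPU. SRSF6 had 0.17, 0.33, -0.30 and -0.25, HNRNPAB 0.07, 0.06, 0.25 and -0.23, and TRA2B 0.20, 0.25, 0.14 and 0.00. Of all genes tested, 74.7% passed this test.

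The drug effect differed between day 5 and day 3 for HNRNPH1 in BT549 (0.60 on the log2 scale) and, in OVCAR8, for SRSF8 (0.37), HNRNPM (0.34), HNRNPH1 (0.29), HNRNPU (0.23) and SRSF4 (-0.20). In DMSO of OVCAR8 the first 4 of these were lower at day 5 than at day 3, at 0.80, 0.621, 0.716 and 0.803-fold, and SRSF4 was higher, at 1.20-fold. The part of the vehicle in these differences was not tested. Of all genes tested, 1.52% had a higher effect at day 5 and 4.45% a lower one in BT549, and 2.31% and 5.15% in OVCAR8. With the replicate block, limma called 0 of the regulators in OVCAR8 (11 at an unadjusted p under 0.05). The calls of both lines also depended on single libraries, as given above.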

How the results depend on the processing

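Of the single-gene results under other settings, 1351 kept direction and side of the threshold, 129 lost the call, 12 gained one and 0 changed direction. The counts of called genes that moved by over 1.5 times were these. For BT549 at day 3, 4 calls became 8 on recovered reads with limma-voom, 10 with the GC and span correction, 7 with that correction and the replicate block, 13 in 1 fit of 24 libraries and 1 in a fit of 4 libraries. For MDAMB436, 15 became 9 with no filter on low values. For the difference of effects in BT549, 1 became 3, 4, 2 and 7 with limma-voom, the correction, the correction with the replicate block and 1 fit. For the difference in OVCAR8, 5 became 8 with limma-voom, and limma called 0 with the replicate block (11 at an unadjusted p under 0.05) and 0 with the correction and block (12). For DMSO in BT549, 5 became 11 with limma-voom, 11 with the correction, 8 with correction and block and 13 in 1 fit. In BT549, the drug at day 5 against DMSO of day 3 had 10 calls, which became 16 with the correction and 17 in 1 fit. With 1 library left out, the ranges were 3 to 11 (BT549 day 5), 2 to 5 (BT549 day 3), 15 to 20 (OVCAR8 day 5), 9 to 17 (OVCAR8 day 3), 10 to 16 (COV362), 0 to 10 (MDAMB436), 16 to 20 (common effect), 21 to 25 (between lines), 31 to 31 (DMSO levels), 0 to 2 and 0 to 0 (differences of effects in BT549 and OVCAR8), 0 to 7 and 14 to 21 (DMSO in BT549 and OVCAR8), and 2 to 10 and 9 to 12 (drug at day 5 against DMSO of day 3). A group left with 1 library is assumed there to vary like the others. The cause of these shifts was not tested.

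Same-letter libraries had correlations of deviations from -0.170 to 0.242 (the highest in COV362) over 2 pairs per comparison, and the labels do not say what a letter marks, so whether the letters pair the libraries is unknown. With the replicate block the calls were 10 and 4 in BT549 at day 5 and day 3, 18 and 16 in OVCAR8, 13 in COV362, 10 in MDAMB436 and 17 for the common effect. A crossed pairing gave 5 calls in BT549 at day 3 and 20 in OVCAR8 at day 5. With 2 libraries a group, small changes may be missed, and genes of low RPKM such as CLK4 were tested on recovered reads only.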

Other observations

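The genes not described above moved little under the drug. HNRNPUL1, a relative of HNRNPU with a role in DNA repair, rose in OVCAR8 at day 3, from 4.85 and 4.73 RPKM to 5.26 and 5.21 (1.09-fold, limma adjusted p = 0.032), a call that passed in 2 of the 8 fits with 1 library left out (adjusted p up to 0.153), and did not pass elsewhere. SRSF5, an SR protein, rose in the same comparison from 3.83 and 3.85 to 4.37 and 4.51 (1.16-fold, adjusted p = 0.0142) and in MDAMB436 from 2.30 and 2.31 to 2.60 and 2.60 (1.13-fold, adjusted p = 0.0324). Without 1 library, these had adjusted p up to 0.0699 and 0.170. SRSF10, which represses splicing when it is dephosphorylated, rose in OVCAR8 at day 5 from 7.35 and 7.43 to 8.54 and 8.54 (1.16-fold, adjusted p = 0.00221). HNRNPCL1, a gene like HNRNPC, was at 0.0266 to 0.307 RPKM over the 24 libraries and was tested in no line.

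Of the genes of nonsense-mediated decay, SMG5, which helps to recycle the helicase UPF1, rose in 5 of the 6 drug comparisons. Its change was largest in COV362, at 1.57-fold (log2 change 0.61, adjusted p = 0.000191), and was 1.22-fold in BT549 at day 5 and 1.18-fold in MDAMB436. The common effect was 0.29 (adjusted p = 4.65e-10). TNPO3, which imports SR proteins into the nucleus, rose in BT549 at day 5 and in COV362 (1.17-fold and 1.15-fold, adjusted p = 0.0158 and 0.0088).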
